A study of Mus musculus with 20 samples.

Results

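The mRNAs of the translation initiation and elongation factors were followed in total and polysomal RNA of mouse brain. Protein-coding genes whose symbol starts with Eif or Eef were taken, together with Tpt1, Pabpc1 and Pabpc4, and selected on a mean level of at least 1 FPKM over all 20 libraries. FPKM counts fragments per kilobase of transcript, scaled to the depth of the library. The rule left 67 genes of the 68 coding genes so named, out of 15247 genes that reached this mean and 45700 genes listed. The threshold itself decided 1 gene. Eif4ebp3, a 4E-binding protein gene, was just inside at a mean of 1.21 FPKM and was listed at 0 in 1 library, and Eif4e1b, an eIF4E relative, was outside at 0.0025 FPKM. Within the 67 genes, 10 were set against the other 57: Eef1a1, Eef1b2, Eef1g, Eef2, Tpt1, Pabpc1, Eif3e, Eif3f, Eif3h and Eif4b, which are known TOP mRNAs.

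Brains came from “Taiwanese” SMA mice, Smn-/-;SMN2tg/0, a severe model of spinal muscular atrophy with no mouse Smn and 2 copies of human SMN2 on 1 allele. Heterozygous Smn-/+;SMN2tg/0 littermates with the same transgene served as controls, all on a congenic FVB background. Early-symptomatic mice were taken on postnatal day 5 (2 libraries per genotype and fraction), and late-symptomatic mice on postnatal day 7 (3 libraries per genotype and fraction). Each of the 8 groups of genotype, fraction and stage therefore held 2 or 3 libraries: total RNA pooled all fractions of a sucrose gradient and polysomal RNA pooled the polysomal fractions only. A numbered mouse below stands for the libraries of 1 replicate number, and whether total and polysomal libraries of a number came from the same brain is not stated. The table holds no counts, so the depth behind each value is unknown. Smn1 itself was read over the whole gene and overlapped between genotypes at the late stage in total RNA (13.56 to 16.7 FPKM in control, 11.94 to 17.49 in SMA), so it does not check the genotype labels.

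Initiation factors bring the small ribosomal subunit to the capped end of an mRNA and scan it to the start codon. The cap is bound by eIF4E with eIF4G and the helicase eIF4A, eIF3 bridges this complex to the ribosome, and eIF2 delivers the initiator tRNA. Elongation factors eEF1A and eEF2 then load each aminoacyl-tRNA and move the ribosome along. Many of these proteins, like those of the ribosome, are made from mRNAs that begin with a 5′ terminal oligopyrimidine (TOP) tract, a C followed by an unbroken run of C or T. Such mRNAs are known to move between translating and untranslated pools with mTOR signalling, through the repressors LARP1 and the 4E-binding proteins.

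RefSeq starts were available for 6 of the 10 TOP members and 47 of the other 57 (GRCm38.p6). A window from 10 bases before to 20 bases after the annotated start, with the first transcribed base as the 11th letter, is shown for 4 TOP members and for the paralogue Eef1a2 and the helicase Eif4a1, because the comparison turns on these letters. Capitals mark the longest C or T run that holds at least 1 base within 5 bases of the start.
Eif3f, chr7:108934405-108934434, plus strand: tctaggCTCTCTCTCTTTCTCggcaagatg
Eef1a1, chr9:78481705-78481734, minus strand: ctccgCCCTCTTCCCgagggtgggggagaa
Tpt1, chr14:75845246-75845275, plus strand: cgctgacgacagTTCCgggggagccgcgga
Eef2, chr10:81176621-81176650, plus strand: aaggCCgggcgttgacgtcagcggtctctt
Eef1a2, chr2:181156996-181157025, minus strand: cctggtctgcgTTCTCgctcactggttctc
Eif4a1, chr11:69672404-69672433, minus strand: gtaacgTCacgtcgagttgcagagcgccgg
At the annotated base, a C followed by at least 4 letters that are each C or T was found in 1 of the 6 TOP promoters (16.7%), in 1 of the 62 promoters of the other members (1.61%) and in 2.51% of all 32851 mouse promoters. The TOP promoter was that of Eif3f, with a run of 15 letters, and the other was that of Eif2s3x, with a run of 16. A run of at least 8 letters near the start was present in 33.3% of the TOP promoters (Eif3f and Eef1a1), 12.9% of those of the other members and 9.38% of all promoters. No match says only that these letters are not at this annotated start. Eef1g, Pabpc1, Eif3e and Eif3h were not matched.

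The libraries carried the markers of brain. Snap25, Stmn2 and Syt1, synaptic and axonal genes of neurons, were high in all libraries (Snap25 at 182 to 417 FPKM), and Alb, the defining liver gene, stood at 0.19 FPKM or less. Tubb3, a neuronal tubulin, was listed at 0 in both early-symptomatic control polysomal libraries, with group means between 711 and 922 FPKM elsewhere, so a 0 in this table need not mean absence. Of the 67 factors, Eif4ebp3 and the Y-linked Eif2s3y were each listed at 0 in 1 library. The total library of early-symptomatic SMA mouse 1 stood apart from the rest: its Spearman correlation across genes was 0.980 with the other library of its group and at most 0.974 with any library of another group, where every other library reached at least 0.979. Counts of called factors at the early-symptomatic stage are therefore also given without this mouse. Residual blood was present: the 4 erythroid genes together reached 1004 to 4226 FPKM, most of it Hba-a1 and Hbb-bs.

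The factors differed widely in level, and one of them dominated. Together they made up between 1.43% and 2.47% of the summed FPKM of protein-coding genes. Eef1a1, the main eEF1A gene, held 31.8% to 40.4% of the factors' own sum in total RNA and 23.8% to 28.9% in polysomal RNA. Outside the TOP members Eif4g2, an eIF4G relative that does not bind eIF4E, had the highest mean over all libraries (516 FPKM), followed by Eif4a2, Eif4a1, Eif5a and Eif4e. This order pools both fractions and did not hold in every library. In polysomal RNA of early-symptomatic control mouse 1, Eif4a2 (531 FPKM) and Eif4a1 (513 FPKM) lay above Eif4g2 (468 FPKM). Per length, the order of the TOP members in late-symptomatic control total RNA was Eef1a1 at 3112 ± 295 FPKM (SD, n = 3), Tpt1 (a TOP mRNA encoding a growth-related protein) at 994 ± 8.94, Eef1b2 (an eEF1A exchange factor subunit) at 487 ± 30.9, Eef2 at 388 ± 35.7, Eef1g (another subunit) at 240 ± 15.1, Pabpc1 (poly(A)-binding protein) at 146 ± 5.09, Eif3h at 109 ± 1.55, Eif3e at 77.9 ± 2.95, Eif4b (a cofactor of eIF4A) at 65.4 ± 3.44 and Eif3f at 60.9 ± 2.23 FPKM. Eif4b and Eif3f overlapped in this order, and no other neighbours did. Eef1a2, the paralogue known from mature neurons and muscle, stood far below Eef1a1 at 146 ± 9.04 FPKM, and Pabpc4 below Pabpc1 at 15.03 ± 0.590 FPKM. The helicase genes Eif4a1 (285 ± 27.8 FPKM) and Eif4a2 (322 ± 24.0 FPKM) were alike, with overlapping libraries. Eef1a1 lies at chr9:78478449-78489151 on the minus strand, Tpt1 at chr14:75845093-75848525 on the plus strand and Eef1a2 at chr2:181147653-181157014 on the minus strand (GRCm38, Gencode). Pabpc1, Eif3h, Eif3e and Eif4b all lie on chromosome 15, Pabpc1 at chr15:36595661-36609668 and Eif3e at chr15:43250058-43282719, both on the minus strand. FPKM were given per gene, so exons, introns and UTRs were not separated. Eif3e may share reads with its processed pseudogene Eif3s6-ps2, listed at a mean of 22.3 FPKM, and the pairs Eif3j1 and Eif3j2, Eif1a and Eif1ax, and Eif2s3x and Eif2s3y are alike enough that reads may have been split between them.

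**Figure D1:**
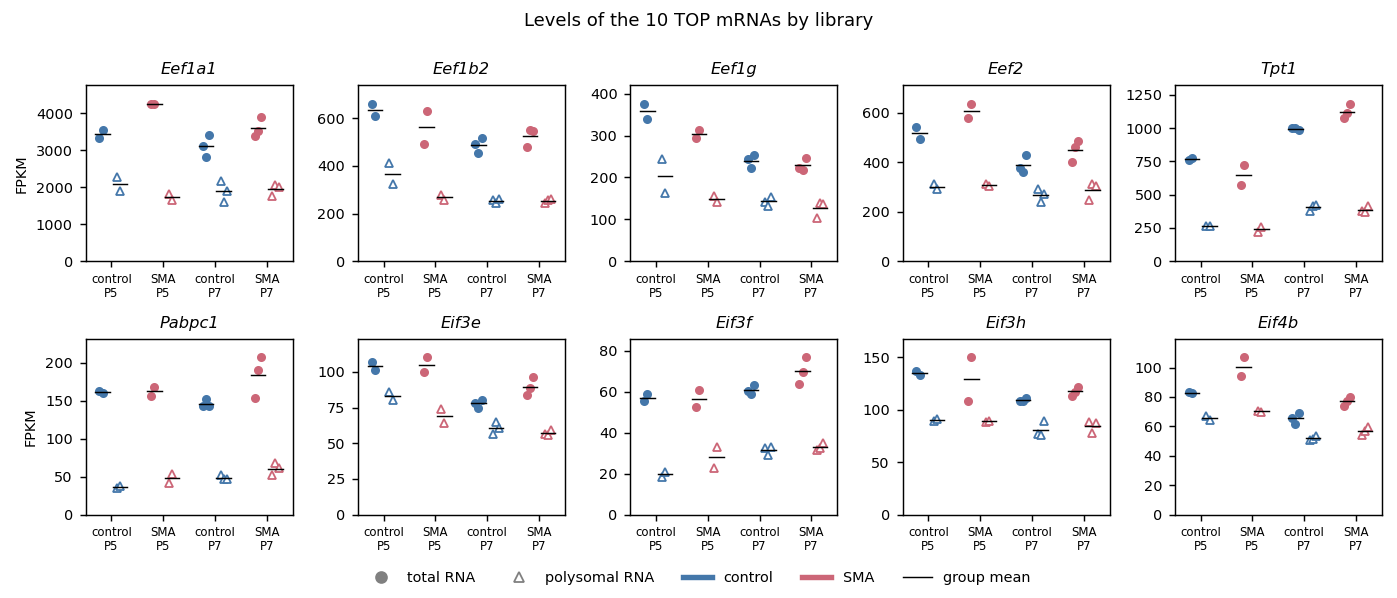
FPKM of the 10 TOP mRNAs in each library (y axis, linear from 0) by genotype and postnatal day (P5, P7; x axis). Filled circles are total RNA, open triangles polysomal RNA, black bars group means; in every panel and group the polysomal libraries lie below the total libraries.

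Polysomal RNA was compared with total RNA to ask how much of each mRNA sits on ribosomes, both being relative to all mRNA of their library. All 10 TOP mRNAs were lower in polysomal than in total RNA, in both genotypes and at both stages, with no overlap between the libraries of any group. Groups did not overlap for 30.8% of all genes in late control, 35% in late SMA, 62% in early control and 47.8% in early SMA mice. In late-symptomatic controls, Tpt1 had 1001, 997 and 984 FPKM in total and 380, 418 and 423 FPKM in polysomal RNA, and Pabpc1 had 143.5, 151.9 and 142.8 against 52.3, 47.3 and 47.1 FPKM. These were the deepest drops of the 10. On the log2 scale Pabpc1 fell by 1.58 ± 0.12 (SE; adjusted p = 4.79e-05, limma with Benjamini-Hochberg adjustment over all genes) and Tpt1 by 1.29 ± 0.064 (adjusted p = 3.68e-06). Eif3f and Eef1b2 followed, down by 0.95 and 0.94. The bulk mRNA Eef1a1 went from 3102, 2822 and 3411 to 2178, 1592 and 1885 FPKM, a fall of 0.73 ± 0.14 (adjusted p = 0.0113). Eif4b and Eif3e had the smallest drops, 0.33 and 0.37.

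The other 57 factors lay on both sides. In late-symptomatic controls 18 of the 67 (26.9%) passed an adjusted p under 0.05, against 13.6% of all genes tested, and 13 of them were lower, against 6.49% of all genes. All 10 TOP members were among the lower ones. The remaining 3 were Eif4ebp2, a 4E-binding repressor (-0.87 ± 0.087, from 9.5, 10.4 and 10.9 to 5.32, 5.38 and 6.07 FPKM), Pabpc4 (-0.50) and Eif4e3, an atypical cap-binding protein (-0.47). On polysomes 5 factors were higher (7.08% of all genes): Eif4a3, a helicase of the exon junction complex (0.34), Eif2s1, the regulated alpha subunit of eIF2 (0.31), the core eIF3 subunit Eif3c (0.25), the scanning factor Eif1ax (0.23) and Eif4h, a cofactor of eIF4A (0.19). The median was -0.74 over the TOP members, 0.098 over the rest and 0.048 over all genes tested. Leaving out control mouse 3 brought the members called from 18 to 11. Eef2 then had adjusted p between 0.0605 and 0.114 without any one of the 3 control mice, Eef1a1 0.0626 and 0.101 without control mouse 2 or 3, and Eif3e 0.0551 and 0.0620 without control mouse 1 or 3. Of the higher factors, Eif3c lost its call without any one control mouse (adjusted p between 0.1455 and 0.1997) and without SMA mouse 2 or 3, Eif1ax without control mouse 2 or 3 or any one SMA mouse (0.0507 to 0.1456), Eif2s1 without control mouse 2 or 3 (0.12 and 0.0989) and Eif4h without control mouse 1 or 3 (0.0671 and 0.0904).

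In late-symptomatic SMA mice 18 factors were called as well (26.9%, against 15.3% of all genes), of which 14 were lower (7.48% of all genes), including the 10 TOP mRNAs. Pabpc1 fell by 1.59 ± 0.12 (153.6, 190.5 and 207.2 to 52.2, 67.9 and 61.9 FPKM) and Tpt1 by 1.53 ± 0.064 (1073, 1111 and 1180 to 375.4, 372.9 and 416.2 FPKM; adjusted p = 1.38e-06). Eif4ebp2, Eif4e3, Pabpc4 and the alternative initiator-tRNA factor Eif2a were the lower ones outside the TOP list, at -0.81, -0.54, -0.48 and -0.21, while Eif4h (0.26), Eif1ad (0.25), Eif4a3 (0.24) and the eIF3 subunit Eif3g (0.21) were higher, 4 factors against 7.84% of all genes. Outside the TOP members Eif4ebp2, Eif4e3, Pabpc4, Eif4a3 and Eif4h were called in both genotypes. The TOP median was -0.88, against 0.079 over the rest. With the mouse number as a block, 20 factors were called in each genotype (backgrounds 20% and 21.8%), all 10 TOP mRNAs among them. Under the block Eif1ax lost its call in control mice (adjusted p = 0.0516), and in SMA mice Eif2a (adjusted p = 0.0890) and Eif3g (adjusted p = 0.0597) lost theirs. The other factors named here and for control mice stayed called. Those gained, all higher, were the eIF2B subunit genes Eif2b1 (0.30) and Eif2b2 (0.23) and the kinase gene Eif2ak1 (0.20) in control mice, and Eif3c (0.23), Eif2b1 (0.25), Eif4a1 (0.32) and the eIF2B subunit gene Eif2b3 (0.19) in SMA mice. Under the block 7 factors were higher in each genotype (10.4%), below the 11.6% of all genes in control and 12.6% in SMA mice. The lower ones numbered 13 in each (19.4%, against 8.45% and 9.2%). Without the block but without SMA mouse 3 Eef2 lost its call (adjusted p = 0.0556), as did Eif1ad (adjusted p = 0.0598). Eif4a3 (adjusted p between 0.0623 and 0.158), Eif2a (0.0694 to 0.234) and Eif3g (0.0846 to 0.2695) lost theirs without any one SMA mouse. Eif2a was also lost without control mouse 2 or 3 (0.0812 and 0.0528) and Eif3g without control mouse 1 (0.0821).

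The calls without the block were counted by role, with no test between roles, beside 6.49% of all genes called lower and 7.08% higher in control mice and 7.48% and 7.84% in SMA mice. Of the 14 eIF3 subunit genes measured, Eif3e, Eif3f and Eif3h were called lower on polysomes in both genotypes at the late-symptomatic stage and no other subunit was. Eif3c was called higher in controls, with 51.4, 51.0 and 54.1 FPKM in total and 62.3, 61.1 and 62.8 FPKM in polysomal RNA, and Eif3g in SMA mice. The list of 9 elongation genes also held the kinase Eef2k and the synthetase-complex gene Eef1e1, but not Eif5a. Of these 9 genes 4 were lower in each genotype, Eef1a1, Eef1b2, Eef1g and Eef2, and none was higher. Eef1a2 did not pass, with 150, 152 and 136 FPKM in total and 166, 147 and 132 FPKM in polysomal RNA of late-symptomatic controls. The 3 genes Pabpc1, Pabpc4 and Tpt1 were lower in both genotypes. Of the 11 cap-binding and helicase genes 2 were lower (Eif4b and Eif4e3) and 2 higher (Eif4a3 and Eif4h) in each genotype. In the list of 11 genes of eIF2, eIF2B and the separate factors Eif2a and Eif2d, 1 was called in each genotype, Eif2s1 higher in controls (20.3, 19.5 and 20.1 to 22.4, 26.8 and 25.1 FPKM) and Eif2a, which is not a subunit of eIF2 or eIF2B, lower in SMA mice. The 4 eIF2 kinases were not called. The list of 10 scanning and start-site genes also held Eif5a, Eif5a2 and Eif6. In this list 1 gene was higher in each genotype, Eif1ax in controls and Eif1ad in SMA mice. Counts of 1 in 10 or 11 genes lie near these shares, and the counts do not test a difference between genotypes.

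Early-symptomatic mice had 2 libraries per group, and fewer genes passed. In early-symptomatic controls 6 factors were called (8.96%, against 2.82% of all genes): Pabpc1 (-2.14), Eif3f (-1.54), Tpt1 (-1.52) and Eef2 (-0.78) were lower, and Eif1ax (0.76) and Eif2s1 (0.57) higher. Pabpc1 went from 162.6 and 159.9 to 35.4 and 37.8 FPKM. Eif3f went from 55.6 and 58.6 to 18.2 and 20.9 FPKM. In SMA mice 3 were called (4.48%, against 0.925%): Pabpc1 (-1.77), Tpt1 (-1.42) and Eef2 (-0.98). Eif4ebp2 had 9.78 and 10.4 FPKM in total and 2.13 and 3.18 FPKM in polysomal RNA of controls, which did not pass the test. The early counts rested on every mouse. Leaving out either control mouse left 0 called in each genotype, and leaving out either SMA mouse left 1 called in SMA and 5 in control mice. With the mouse number as a block 1 factor was called in control mice (0.741% of all genes) and 0 in SMA mice (0.131%), where 21 had an unadjusted p under 0.05 without the block (17.7% of all genes). TOP medians were -0.79 in control mice against -1.03 in SMA mice, with all 10 members negative in both.

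**Figure D2:**
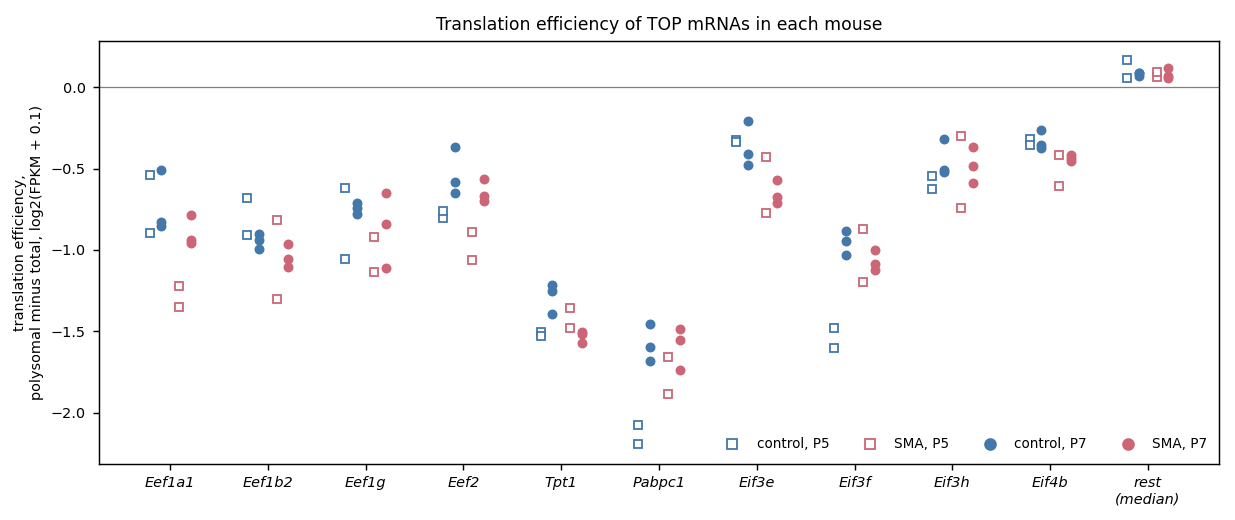
Translation efficiency, the polysomal minus the total log2(FPKM + 0.1) of the same replicate number (y axis), of the 10 TOP mRNAs and the median of the 57 other factors (x axis). Each point is a mouse number, open squares postnatal day 5 and filled circles day 7; every TOP value is below 0, while the median of the rest lies between 0.056 and 0.17.

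The TOP mRNAs outside the factor family were also mostly lower. Of 85 other TOP mRNAs tested, nearly all of ribosomal proteins, 79 were called lower on polysomes in late-symptomatic controls and 79 in late-symptomatic SMA mice, with medians of -0.82 and -0.92, where 6.49% and 7.48% of all genes were called lower. TOP members made up 59.8% to 64.9% of the summed factor FPKM in total RNA and 42.0% to 46.6% in polysomal RNA. The genes listed under termination and recycling, with the initiation gene Abcf1 among them, had in contrast positive late-symptomatic values (9 of 9 in each genotype). Of these, 2 were called in control mice against 4 in SMA mice, such as the recycling factor Denr (0.31 and 0.24). Of all genes 7.08% and 7.84% were called higher. Of the 19 mTOR pathway genes tested, 4 were called in control and 3 in SMA mice, all higher, against the same 7.08% and 7.84%, among them the poly(A)-binding protein regulator Paip2b (0.30 and 0.27). Larp1, the TOP repressor, was called higher in polysomal than in total RNA of SMA mice (0.30). In control mice its value was also positive but not called (0.18, limma adjusted p = 0.126). Between genotypes it was not called on late polysomes (0.089), in late total RNA (-0.035) or in the late polysomal minus total difference (0.12).

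Translation efficiency (TE), the difference between polysomal and total RNA, was then compared between genotypes at the late-symptomatic stage. All 10 TOP members had a more negative TE in SMA than in control mice, with a median change of -0.11, against -0.0070 over the other 57 and 0.0004 over all genes tested. Per mouse the median TE of the TOP members was -0.65, -0.79 and -0.78 in control mice against -0.95, -0.73 and -0.90 in SMA mice, and the genotypes overlapped through SMA mouse 2. At an unadjusted p under 0.05 the call went to 5 factors (7.46%, against 2.07% of all genes), and no factor passed the adjusted threshold, as 0.0394% of all genes did (adjusted p = 1 for each of the 5).

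Eif3e, an eIF3 subunit, had the largest TE loss among the called factors (-0.29 ± 0.091). Its TE was -0.48, -0.21 and -0.41 in control mice against -0.57, -0.68 and -0.71 in SMA mice, with no overlap. Tpt1 lost 0.24 ± 0.090, with -1.39, -1.25 and -1.22 in control mice against -1.52, -1.57 and -1.50 in SMA mice, again without overlap. Both had higher values in SMA than in control total RNA, without overlap. Eif3e had 78.2, 74.7 and 80.6 FPKM in control mice against 83.5, 88.8 and 96.5 in SMA mice in total RNA, and 56.2, 64.7 and 60.6 against 56.2, 55.5 and 59.0 FPKM on polysomes. Eif2a was lower in TE by 0.19, and Eif1ad, an eIF1A-like gene (0.14), was higher. Eef2kmt, the methyltransferase of eEF2, had a TE of -0.36, -0.076 and -0.66 in control mice against 0.26, 0.63 and 0.14 in SMA mice (0.71 ± 0.30), from low levels of 2.11 to 4.74 FPKM. With the mouse number as a block 7 factors were called (10.4%, against 4.32% of all genes): Tpt1, Eif3e, Eef2kmt, Eif1ad, Eif4a2 (-0.17), the double-stranded RNA-activated eIF2 kinase Eif2ak2 (-0.31) and Eif4b (-0.11), while Eif2a was no longer called. Without the block, leaving out control mouse 2, control mouse 3 or SMA mouse 2 left 1 factor called, SMA mouse 3 left 2 and SMA mouse 1 left 3. Tpt1 lost its call without control mouse 2, control mouse 3 or SMA mouse 2 (changes of -0.23, -0.21 and -0.22), and Eif3e without control mouse 2 (-0.21). Eif1ad lost its call whichever mouse was left out, Eif2a in 4 of the 6 cases and Eef2kmt in 4.

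Of the other TOP mRNAs, 72 of 85 had a lower TE value in late-symptomatic SMA mice, median -0.13, and 4 passed the unadjusted threshold, all ribosomal protein genes (Rpl22l1, Rpl17, Rpl21 and Rpl3), where 0.977% of all genes were called lower. None of the 19 mTOR pathway genes and none of the 9 termination and recycling genes was called. At the early-symptomatic stage the change in TE was mixed. No factor passed the adjusted threshold (0.617% of all genes did). Of the TOP members 6 were lower and 4 higher, median -0.19, against -0.027 over the rest. One factor was called (1.49%, against 2.32% of all genes), Eif1ax, whose TE was 0.76 and 0.76 in control mice against 0.48 and 0.34 in SMA mice (-0.35). Eif3f and Pabpc1 had higher TE values in SMA mice (0.51 and 0.36) and Eef1a1 a lower one (-0.57), none of them called. Leaving out control mouse 1 gave 0 calls, and leaving out any one of the other 3 gave 4 or 5. With a trend along transcript length removed there were 0 calls, and also with values above 0 FPKM required in every library. Among the other TOP mRNAs Rpl13 alone was called, and it is listed at 0 in both control polysomal libraries and so gives no fold.

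**Figure D3:**
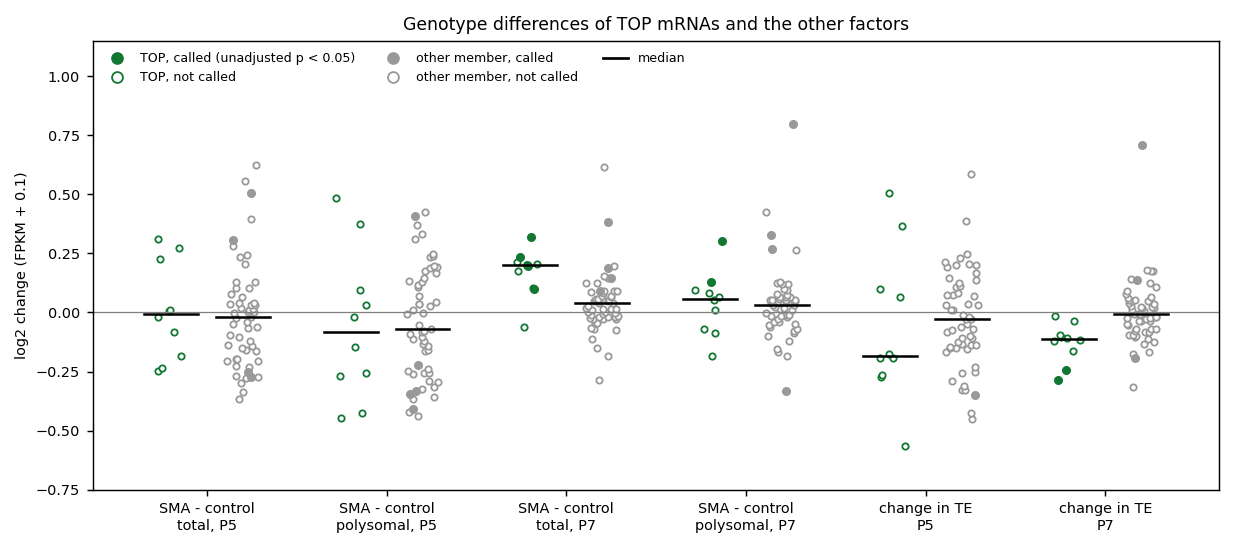
Log2 change of SMA over control in total and polysomal RNA and change in TE (y axis) at postnatal days 5 and 7 (x axis), for the 10 TOP mRNAs (green) and 55 other factors (grey; Eif2s3y and Eif4ebp3 are beyond the axis and not drawn). Filled points passed an unadjusted p under 0.05 and bars are medians over all 10 and all 57; at day 7 the TOP median is 0.20 in total RNA and -0.11 in TE.

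Total RNA of late-symptomatic mice was compared between genotypes to ask which factor mRNAs differ in amount. Here 9 factors rose in SMA mice and none fell (13.4%, against 9.54% of all genes called and 4.84% called higher, unadjusted p under 0.05). Of these, 5 were TOP mRNAs: Pabpc1, Eif4b, Eif3e, Eif3f and Eif3h. Pabpc1 had 143.5, 151.9 and 142.8 FPKM in control mice against 153.6, 190.5 and 207.2 in SMA mice (0.32 ± 0.12, adjusted p = 0.495). Eif4b had 65.7, 61.9 and 68.8 against 73.6, 77.3 and 80.0 FPKM (0.23 ± 0.053, adjusted p = 0.323). All SMA libraries lay above all controls in both. The 4 others were the start-codon factor Eif1, with 121.9, 135.4 and 117.3 against 146.0, 162.1 and 180.8 FPKM (0.38 ± 0.098), the eIF2 beta subunit Eif2s2, with 48.4, 46.0 and 46.2 against 52.6, 54.1 and 53.4 FPKM (0.19 ± 0.031), the helicase Eif4a3 (0.15) and the eIF2 GTPase activator Eif5 (0.089). No factor passed the adjusted threshold (lowest adjusted p = 0.216, Eif2s2), as 0.111% of all genes did.

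TOP members had a median of 0.20 in this comparison, against 0.039 over the rest and 0.00 over all genes, and 9 of 10 were positive, all but Eef1g (-0.062). Eef1a1 had 3102, 2822 and 3411 against 3388, 3524 and 3905 FPKM, which overlap. Tpt1 did not overlap, at 984 to 1001 against 1073 to 1180 FPKM, and was not called (0.17 ± 0.070). Of the other TOP mRNAs 77 of 85 were higher (median 0.096) and 2 were called (0 to 6 without any one mouse), where 4.84% of all genes were called higher. By role, in the same lists, 3 of the 14 eIF3 genes, 2 of the 11 cap-binding and helicase genes and 2 of the 10 scanning genes rose. So did 1 of the 11 genes in the eIF2 list (the subunit gene Eif2s2) and 1 of the 3 genes Pabpc1, Pabpc4 and Tpt1. None of the 9 elongation genes, the 4 eIF2 kinases or the 4 genes of 4E-binding proteins was called. Leaving out control mouse 1, control mouse 2 or SMA mouse 3 cut the called factors from 9 to 4. Eif1, Eif4b and Eif2s2 stayed called whichever mouse was left out, whereas Pabpc1, Eif3f and Eif3h each lost their call in 5 of the 6 cases, Eif4a3 in 4 and Eif3e and Eif5 in 3.

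On polysomes at the same stage 6 factors were called (8.96%, against 10.7% of all genes), a share below the background. Of these, 5 were higher (7.46%, against 5.35% of all genes) and 1 was lower (1.49%, against 5.38%). Eif4ebp1, the 4E-binding repressor that mTOR switches off, showed the largest rise among them, with 2.23, 1.5 and 2.11 FPKM in control mice against 2.93, 3.80 and 3.55 FPKM in SMA mice (0.80 ± 0.19, adjusted p = 0.2885; adjusted p was under 0.05 for 0 factors and 0.0918% of all genes). In total RNA it had 2.55, 2.32 and 2.61 against 2.68, 4.92 and 4.37 FPKM, not overlapping but not called. Eef2k, the kinase that inhibits eEF2, rose from 21.8, 20.9 and 21.2 to 27.8, 23.1 and 26.3 FPKM (0.27 ± 0.075), while in total RNA it overlapped, at 15.2, 25.5 and 20.8 against 16.1, 18.5 and 32.9 FPKM. Eif1 (0.33), Pabpc1 (0.30, with overlapping libraries) and Eif4b (0.13) were again higher, and Eif2ak2 was lower (-0.33; 2.09, 2.73 and 2.41 against 2.11, 1.81 and 1.74 FPKM, overlapping). The TOP median was 0.059 against 0.034 over the rest, and -0.0015 without control mouse 2. Eif4b lost its call in 5 of the 6 cases that left out 1 mouse, Eif1, Pabpc1 and Eif2ak2 each in 4, and Eef2k in 1. Without SMA mouse 3 only Eif4ebp1 was still called, without control mouse 2 there were 2 calls, and without control mouse 1 there were 13.

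Other cells of the brain differed beside these results. In late-symptomatic total RNA the 3 endothelial markers summed to 33.7, 38.9 and 44.0 FPKM in control mice against 19.7, 22.3 and 19.8 FPKM in SMA mice, most of it Cldn5. The 4 astrocyte markers summed to 287, 334 and 329 against 458, 414 and 374 FPKM, but did not move alike. From control to SMA mice the group mean went from 119.9 to 204.6 FPKM for Aldoc and from 53.4 to 70.6 for Gfap. Slc1a3 went from 90.2 to 95.9 FPKM, and Aqp4 fell from 53.1 to 44.4 FPKM. In early-symptomatic total RNA the endothelial sum was 63.1 and 54.8 FPKM in control mice against 26.0 and 25.6 in SMA mice. None of these markers was at 0. The 4 oligodendrocyte genes set single mice apart, with 113 FPKM in control mouse 1 and 180 in SMA mouse 3 against 305 to 360 FPKM in the other 4. Erythroid genes (3535, 3569 and 4119 against 4226, 2906 and 3426 FPKM) and the 5 neuronal markers (2628, 2674 and 2949 against 2325, 2808 and 2859 FPKM) overlapped. Late polysomes had endothelial sums of 45.9, 45.8 and 52.6 against 24.6, 29.4 and 23.7 FPKM and astrocyte sums of 386, 378 and 381 against 547, 529 and 445 FPKM. Early astrocyte sums were 266 and 316 against 347.5 and 370 FPKM in total RNA and overlapped on polysomes. The Aqp4 mean was lower in SMA mice on late polysomes too (61.3 in control against 49.0 FPKM). It was also lower in early total (49.7 against 43.8 FPKM) and early polysomal RNA (65.2 against 54.9 FPKM). Aldoc and Gfap means were higher in SMA mice in all of these, while Slc1a3 was lower on early polysomes only. Early polysomal endothelial sums were 119 and 75.6 against 41.1 and 30.1 FPKM. Early oligodendrocyte sums in total RNA were 119 and 214 against 96.6 and 210 FPKM. The part of these cell types in the genotype differences was not tested, and fewer cells of a type and less RNA per cell cannot be told apart.

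Early-symptomatic genotype differences were few, and no TOP member was called. In total RNA 4 factors were called (5.97%, against 8.25% of all genes): Eif1 fell (170.2 and 177.5 to 136.6 and 151.1 FPKM; -0.27) with the synthetase-complex gene Eef1e1 (-0.25), and Eef2k (31.9 and 25.5 to 40.3 and 41.0 FPKM; 0.51) and the scaffold gene Eif4g3 (0.31) rose. On polysomes 5 were called (7.46%, against 12.5%): Eif2s1 (36.5 and 31.7 to 26.3 and 24.8 FPKM; -0.41), Eif3k (-0.34), Eif1ax (-0.33) and the eIF2B subunit Eif2b1 (-0.22) fell, and Eef2k rose (0.41). None passed the adjusted threshold (lowest adjusted p = 0.551 in total and 0.386 in polysomal RNA), as 0.164% and 0.649% of all genes did. Eef1a1 was higher in both SMA total libraries (4247 and 4238 against 3318 and 3533 FPKM) but not called, with a change of 0.31 and an SE of 0.79 under the variance trend. With a variance model without the trend its SE was 0.075 and it was called.

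These early differences ran along transcript length. Across 13067 coding genes the SMA change correlated with the length of the longest transcript (Spearman rho 0.56 in total and 0.45 in polysomal RNA, across genes, which are not independent replicates), against -0.064 and -0.11 at the late stage. The factors had shorter transcripts than the median coding gene, with median lengths of 2226 nt for the TOP members and 2945 nt for the rest, against 3488 nt. With the length trend removed the early total count went from 4 to 1. All 85 other TOP mRNAs were lower in early SMA total RNA, median -0.30, and after the correction 69 were lower, median -0.13. This rested on SMA mouse 1, whose total library stood apart. Without it 50 of 85 were lower, median -0.017, the rho with length was 0.33 and the TOP members had 3 of 10 lower with a median of 0.082, whereas without any one of the other 3 mice 84 or 85 were lower, with medians from -0.56 to -0.23. On polysomes 81 were lower, median -0.40, and 75 after the correction, median -0.28. Without any one mouse 76 to 84 were lower there, with medians from -0.48 to -0.33. Of the 85, 1 was called lower in early total RNA (3.89% of all genes) and 32 on early polysomes (6.82%), 17 after the correction, none of the 32 at an adjusted p under 0.05. These calls rested on single mice, with 0 on polysomes without SMA mouse 2, 7 without SMA mouse 1, 16 without control mouse 1 and 40 without control mouse 2, and 45 in total RNA without SMA mouse 2. On polysomes 1 was called higher, Rpl13, which gives no fold. The TOP members had medians of -0.0067 in total and -0.082 in polysomal RNA, with 5 and 6 of 10 lower. On polysomes they ran from Eef1b2 (-0.45) and Eef1g (-0.43) to Pabpc1 (0.37) and Eif3f (0.49), none called, and the difference from the other TOP mRNAs was not tested. The counts of called factors also rested on single mice: without SMA mouse 1 they were 3 in total and 5 in polysomal RNA, without SMA mouse 2 they were 19 and 2, without control mouse 2 they were 1 and 19, and without control mouse 1 they were 1 and 2.

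**Figure D4:**
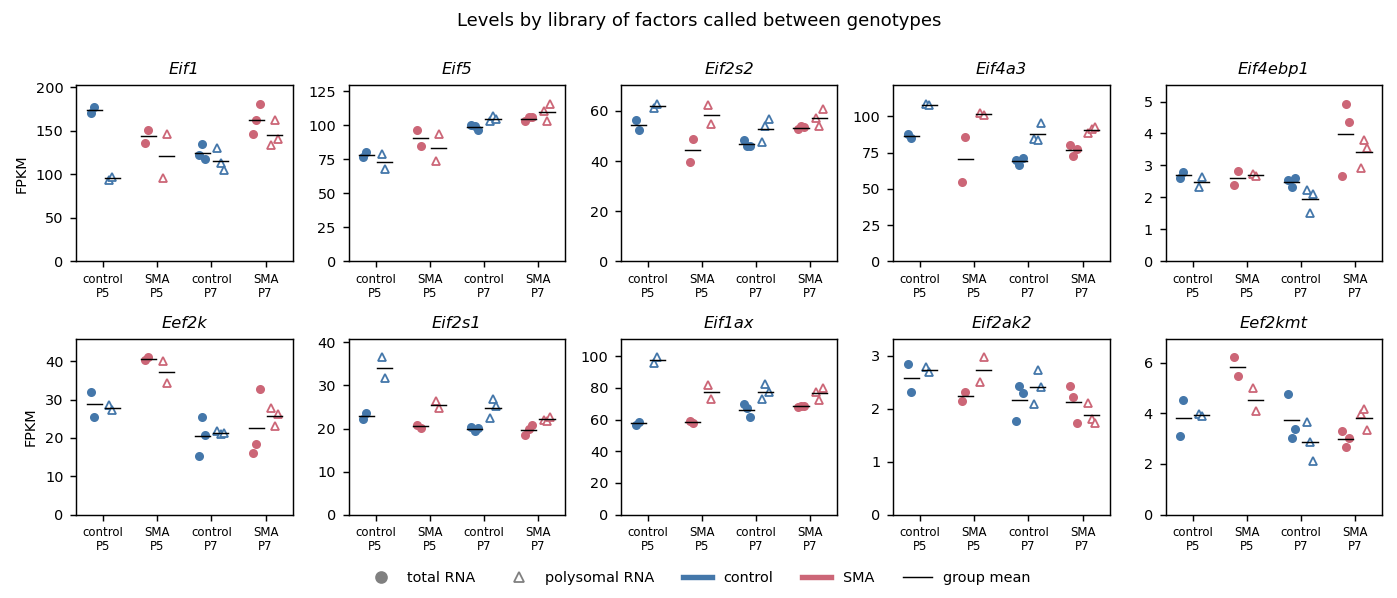
FPKM by library (y axis, linear from 0) of 10 factors called in a genotype comparison or in the change in TE, by genotype and postnatal day (x axis). Filled circles are total RNA, open triangles polysomal RNA and black bars group means; for Eif4ebp1 on day 7, polysomal values are 2.93 to 3.80 FPKM in SMA mice against 1.5 to 2.23 in control mice, and 1 SMA total library (2.68 FPKM) lies close to the controls (up to 2.61 FPKM).

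Between postnatal days 5 and 7 several factors shifted in both fractions. In control total RNA 17 were called at an adjusted p under 0.05 (25.4%, against 21.2% of all genes), in control polysomal RNA 14 (20.9%, against 20.6%), in SMA total RNA 1 (1.49%, against 5.56%) and in SMA polysomal RNA 14 (20.9%, against 22.7%). Tpt1 was called higher in 3 of the 4, from 758 and 772 to between 984 and 1001 FPKM in control total RNA (0.38), by 0.61 in control and by 0.68 in SMA polysomal RNA. In SMA total RNA it also rose without overlap, from 572 and 726 to between 1073 and 1180 FPKM, but was not called. Eef1a2 was called higher in the same 3 comparisons (0.29, 0.49 and 0.32), as was Eif2ak1, the haem-regulated eIF2 kinase (0.46, 0.80 and 0.61). In SMA total RNA neither was called, though both rose without overlap. Lack of overlap was common in that comparison, for 51.6% of all genes and 43.3% of the factors. There Eef1a2 went from 115.7 and 135.8 to between 139.6 and 155.8 FPKM, and Eif2ak1 from 10.6 and 8.35 to between 12.1 and 12.6 FPKM. Eef1g (-0.58), Eef1d (an exchange factor subunit, -0.54), Eif1 (-0.48), Pabpc4 (-0.46), Eif3g (-0.43), Eif3e (-0.42) and Eif5a (the hypusinated elongation factor, -0.42) fell in control total RNA, where TOP members had a median of -0.32 against -0.085 over the rest. Eif4ebp2 rose on control polysomes by 1.07, from 2.13 and 3.18 to between 5.32 and 6.07 FPKM, and the TOP members Eif3f (0.68) and Pabpc1 (0.42) rose there too. The call in SMA total RNA was Eef2kmt (-0.95). Age and anything else that differed between the mice of the 2 days cannot be told apart. Single mice decided these counts. Without late control mouse 1 no call was left in control RNA of either fraction, without late control mouse 2 there were 1 and 0, without either early control mouse there were 0 in total RNA, and without any one late SMA mouse there were 0 in SMA RNA of either fraction.

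Whether the SMA effect differed between day 5 and day 7 was tested as an interaction. In total RNA 8 factors were called (11.9%, against 10.1% of all genes), 5 of them more positive on day 7 (4.55% of all genes) and 3 more negative (5.6%), in polysomal RNA 8 (11.9%, against 13.7%), all more positive on day 7 (6.81% of all genes were called in that direction and 6.86% in the other), and for the change in TE 3 (4.48%, against 2.75%), at an unadjusted p under 0.05. With the transcript length trend, described above, removed, 4 and 5 factors were called in total and polysomal RNA. Without early SMA mouse 1 the counts were 3, 11 and 6, and without early SMA mouse 2 they were 21, 2 and 5. None passed the adjusted threshold (0.125%, 0.597% and 0.531% of all genes did). Among the called factors, Eef2kmt (-0.91) and Eif1, lower in SMA mice on day 5 and higher on day 7 (0.66), differed most in total RNA, followed by Eif4g3 (-0.49), Eif2s2 (0.49), Eif1b, a close copy of Eif1 (0.46), and Tpt1 (0.42). Among those called on polysomes Eif4ebp1 had the largest difference (0.68), and the TOP member Eef1b2 was another (0.46). Eif2s3y, which differed between mice of 1 group, had larger values in total (5.19) and polysomal RNA (6.56), as did Eif4ebp3 on polysomes (-2.55), and neither was called. The change in TE of Eif3f was positive on day 5 (0.51) and negative on day 7, a difference of -0.62, and that of Eef2kmt differed by 1.13.

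The remaining regulators were called in few comparisons. Eif2ak3, the endoplasmic reticulum stress kinase of eIF2, was between 5.56 and 8.41 FPKM in all libraries and was called in no genotype comparison. Eif4a1 and Eif4a2 were called in no genotype comparison of total or polysomal RNA. Of the mTOR pathway genes, Mtor was higher in early-symptomatic SMA mice in total (11.8 and 11.1 against 15.1 and 14.4 FPKM; 0.36) and polysomal RNA (0.32), Paip2, which binds poly(A)-binding protein, was lower on early polysomes (-0.29) and higher in late total RNA (0.18), and the S6 kinase gene Rps6kb1 (0.12) and the mTOR activator Rheb (0.13) were higher in late total RNA, all at an unadjusted p under 0.05. These were 1 of the 19 genes higher in early total RNA (4.36% of all genes), 1 higher and 1 lower on early polysomes (5.65% and 6.82%) and 3 higher in late total RNA (4.84%). In the termination and recycling list of 9 genes, 3 were lower in late SMA total RNA (the initiation gene Abcf1 -0.27, Hbs1l -0.16 and Abce1 -0.11). On late SMA polysomes 2 were lower (Gspt1 -0.19 and Abce1 -0.14). Denr (-0.26) was lower in early total and Mcts1 (-0.22) in early polysomal RNA. Of all genes 4.7% were called lower in late total, 5.38% in late polysomal, 3.89% in early total and 6.82% in early polysomal RNA.

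Eif2s3x and Eif2s3y, the X- and Y-linked genes of the eIF2 gamma subunit, differed between mice of 1 group. Eif2s3y was at 0.5 FPKM or less in both libraries of SMA mouse 1 on day 5, control mice 1 and 2 on day 7 and SMA mouse 3 on day 7, and between 25.2 and 37.8 FPKM in all other libraries. Eif2s3x was higher in those 4 mice, for instance 88.8 and 88.9 against 65.4 FPKM in late control total RNA. On day 5, then, no control and 1 of 2 SMA numbers, and on day 7, 2 of 3 control and 1 of 3 SMA numbers had low Eif2s3y. Neither gene was called between genotypes.

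**Figure D5:**
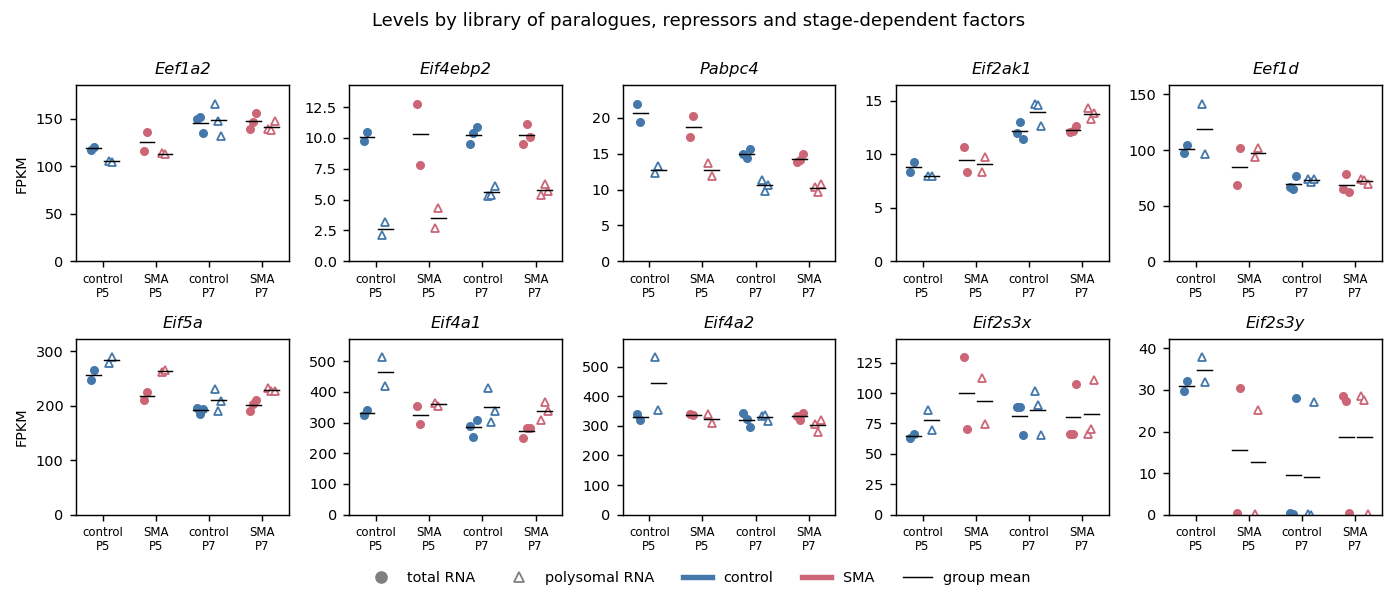
FPKM by library (y axis, linear from 0) of paralogues, the repressor Eif4ebp2, factors that differ between days and the sex-linked pair Eif2s3x and Eif2s3y, by genotype and postnatal day (x axis). Filled circles are total RNA, open triangles polysomal RNA and black bars group means; Eif2s3y is near 0 in the same 4 mice in both fractions.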

How the data were processed

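The authors prepared stranded libraries of total and polysomal RNA, aligned them with TopHat 2.0.14 to GRCm38.p4 with Gencode M6, and deposited 1 table of FPKM per gene and library, computed with Cufflinks 2.2.1 (per the labels and the study's methods). Every one of the 20 columns was matched to a library by its label. Genes were analysed as log2(FPKM + 0.1) with limma 3.58.1 in R 4.3.3 (lmFit, eBayes with trend), fitted over the 15247 genes whose mean reached 1 FPKM, and only the factors are shown. Fold changes are on this log2 scale, which understates those of weakly expressed genes. Genotype and day fits used only the groups compared, and stage differences the groups they involve. Fraction and TE fits used all 4 groups of a stage, which shared 1 estimate of the spread. Leaving out an SMA mouse could therefore also change a fraction call in control mice. A change in TE was tested as a genotype by fraction term. Calls were at an unadjusted p under 0.05 for genotype and stage differences, the threshold of the study, and at a Benjamini-Hochberg adjusted p under 0.05 for fraction and day. Each library came from 1 brain per the labels, and litters and batches were not given in the sources used here. The files hold no counts, so depth is unknown.

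The members and lists were chosen with earlier results of these data known, so counts and medians over them carry no p. Named by rule were the TOP members, per comparison and direction up to 5 called members with the largest change and no overlap between groups, the paralogue pairs, Eif4ebp1, Eif4ebp2, Eif2s1, Eef2k, Eif2ak3, Eif2s3x and Eif2s3y, and up to 2 called genes of each further list. All other genes, such as Eif2ak2 on late polysomes and the ribosomal protein genes, were named after their values were seen.

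The labels do not say that same-numbered total and polysomal libraries share a brain. Across 14335 genes, deviations from the group mean of same-numbered late libraries correlated with r between 0.16 and 0.45, all above 0.1. Low Eif2s3y also marked the same numbers in both fractions. The late numbers were therefore taken as pairs, and those of control and SMA mice were not (r between -0.14 and 0.10). The pairing entered only the fits with a block. The main late counts of 18 (control), 18 (SMA) and 5 factors (change in TE) ignore it, and with the block they were 20, 20 and 7. Gene lengths and coordinates came from Gencode M21 and starts from RefSeq. Scripts were tested on simulated data. Protein sequences were not analysed here.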

Additional observations from a re-analysis of the deposited data

Results flagged for a closer look

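The results below concern effects that differed between genotypes or between stages by an interaction term with an unadjusted p under 0.05 in limma, and none passed the adjusted threshold. At the late-symptomatic stage the change in TE differed between genotypes for 5 factors (7.46%, against 2.07% of all genes tested). These were Eif3e (-0.29), Tpt1 (-0.24), Eif2a (-0.19), Eif1ad (0.14) and Eef2kmt (0.71). Eif2a lost its call with the mouse number as a block, and Eif1ad whichever mouse was left out. Eif3e, Tpt1 and Eef2kmt lost theirs without some single mice. At the early-symptomatic stage Eif1ax alone differed (-0.35), a share below the background (1.49%, against 2.32%). With the length trend removed it was no longer called.

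The SMA effect in total RNA differed between stages (day 7 minus day 5) for 8 factors (11.9%, against 10.1% of all genes tested). It was more negative at day 7 for Eef2kmt (-0.91), Eif4g3 (-0.49) and Eif4g1 (-0.39) and more positive for Eif5a (0.29), Tpt1 (0.42), Eif1b (0.46), Eif2s2 (0.49) and Eif1 (0.66). Eif1 went from 174 FPKM in control and 144 in SMA mice on day 5 to 125 and 163 FPKM on day 7.

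In polysomal RNA the effect differed for 8 factors (11.9%, against 13.7%), all more positive at day 7 (6.81% of all genes more positive, 6.86% more negative): Eif3g (0.23), Eif4h (0.30), Eif1ax (0.31), Eif3k (0.36), Eif3i (0.43), Eif1ad (0.44), Eef1b2 (0.46) and Eif4ebp1 (0.68). The change in TE differed between stages for Eif3f (-0.62), Eif4h (0.35) and Eef2kmt (1.13), 4.48% of the factors against 2.75% of all genes. Across coding genes the stage difference correlated with transcript length (Spearman rho -0.55 in total and -0.50 in polysomal RNA), and with the length trend removed 4 and 5 factors were called.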

How the results depend on the processing

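Of 380 counts and TOP minus rest medians recomputed with all libraries, 316 stayed within 1.5-fold (counts) or within 1 SD between replicates (medians; SD 0.0451 to 0.0937). Medians near 0 could turn sign within that SD: early total SMA change 0.0104 became -0.0705 with the TOP list without eIF3 subunits and Eif4b (0.0712 with the length correction), late polysomal 0.0248 became -0.0032 with that list, early polysomal -0.01 became 0.0056 at a mean of 5 FPKM, and control polysomal days 0.0183 became -0.007 at a pseudocount of 1. Calls of single factors were kept in 416 and lost in 416 of the cases that left out 1 mouse, and none reversed. The lower position of the TOP members on polysomes kept its sign under every alternative run, with a TOP minus rest median of -0.84 in late control and -0.96 in late SMA mice, which became -0.94 and -1.05 when the eIF3 subunits and Eif4b were left out of the list. That shorter list gave -1.26 for early SMA mice, -0.13 for the early polysomal SMA change (main -0.01), 0.085 for SMA polysomal days and 0.037 for the polysomal stage difference. The genotype counts did not hold under adjustment: at an adjusted p under 0.05, 0 factors were called in the 4 SMA comparisons, in both changes in TE and in the 3 stage differences. The files hold no counts, so how far depth limits weakly expressed factors such as Eif4ebp1 and Eef2kmt could not be measured, and day 5 had 2 libraries per group. Causes of the shifts below were not tested.

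With 1 model over all libraries the counts became 9 and 18 for early total and polysomal SMA changes, 21 and 18 for polysomal against total RNA in early control and SMA mice, 7 and 2 for the early and late change in TE, 28 for control polysomal and 16 for SMA total days, and 13 for the polysomal stage difference. With the length correction they became 1 for the early total SMA change, 11 and 6 for the early polysomal comparisons in control and SMA mice, 0 for the early change in TE, 7 for SMA total days, and 4 and 5 for the total and polysomal stage differences, and the TOP minus rest medians became 0.077 for the early polysomal SMA change (main -0.01), -1.19 for early SMA polysomal against total RNA and 0.032 for the total stage difference. The variance model without trend gave 2 for the early change in TE. Unadjusted calls gave 25 and 21 for the early polysomal comparisons, 29 for late SMA mice, and 32, 27, 18 and 25 for days in control total, control polysomal, SMA total and SMA polysomal RNA. Requiring values above 0 in every library gave 7 for early SMA polysomal against total RNA, 0 and 3 for the early and late change in TE and 3 for SMA total days. A mean of 5 FPKM gave 2 for the late change in TE and 0 for SMA total days, a pseudocount of 1 gave 3 for the late change in TE, and no filter gave 7, 3 and 4 for days in control total, control polysomal and SMA polysomal RNA.

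With the replicate number as a block the counts became 1, 8 and 3 for the early total, early polysomal and late polysomal SMA changes, 1 and 0 for polysomal against total RNA in early control and SMA mice and 2 for the early change in TE. Control and SMA mice share only a number. For day 5, with 2 numbers per genotype, the rule for taking same-numbered total and polysomal libraries as pairs was not met (r of 0.0952 in control and 0.2145 in SMA mice), although Eif2s3y was low in both libraries of SMA mouse 1, so whether they share a brain is not settled. The medians and calls of the TOP lists without each mouse, given with the genotype comparisons, were chosen after seeing the data. The block with the length correction, also chosen then, gave 0 for the early total and 2 for the late polysomal SMA change, 3 for early control polysomal against total RNA, 2 for the early change in TE, and TOP minus rest medians of 0.077 for the early polysomal SMA change and -1.19 for early SMA polysomal against total RNA.

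Leaving out 1 mouse at a time gave the following ranges of called factors and of TOP minus rest medians. The SMA changes ran from 1 to 19 and -0.062 to 0.10 in early total, 2 to 19 and -0.057 to 0.062 in early polysomal, 4 to 12 and 0.117 to 0.18 in late total and 1 to 13 and -0.021 (without control mouse 2) to 0.0663 (without control mouse 3) in late polysomal RNA. Polysomal against total RNA ran from 0 to 5 and -0.96 to -0.82 in early control, 0 to 1 and -1.19 to -0.96 in early SMA, 11 to 17 and -0.86 to -0.81 in late control and 13 to 18 and -1.06 to -0.87 in late SMA mice. The change in TE ran from 0 to 5 and -0.19 to -0.024 early and from 1 to 5 and -0.12 to -0.081 late. Days ran from 0 to 19 and -0.26 to -0.21 in control total, 0 to 16 and -0.073 to 0.047 in control polysomal, 0 to 1 and -0.25 to -0.017 in SMA total and 0 to 4 and -0.055 to 0.020 in SMA polysomal RNA. The stage differences ran from 3 (without early SMA mouse 1) to 21 (without early SMA mouse 2) and 0.065 to 0.23 in total RNA, from 2 (without early SMA mouse 2) to 18 (without early control mouse 2) and -0.072 to 0.025 in polysomal RNA, and from 0 (without early control mouse 1) to 7 (without early control mouse 2) and -0.12 to 0.11 for the change in TE.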
